A study of Mus musculus with 8 samples.

Results

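The genes described here are 57 genes of the Wnt pathway, out of 24063 gene symbols in the expression tables of mouse tubuloid cultures. They were chosen by name, with earlier results of these data known. They comprise 18 Wnt ligands (the numbered Wnt genes listed, without Wnt11), 10 frizzled receptors, 5 co-receptors and alternative receptors, 10 secreted inhibitors, 9 genes of the R-spondin branch, and 5 transcription factors and feedback targets. All 57 genes have a row in the tables, and 52 of them passed the filter on low counts. The other 5, Wnt3a, Wnt6, Wnt8a, Rspo2 and Dkk4, stayed at 39 counts or fewer in every culture and were not tested.

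Tubuloids are epithelial structures grown in Matrigel, a basement membrane gel, from tubule fragments of young mouse kidney. RNA-Seq was performed on 8 cultures, of which 4 had received GDNF (glial cell line-derived neurotrophic factor, the ligand of the Ret receptor that drives outgrowth of the ureteric bud) for 24 h after plating and 4 had not. All cultures shared the genotype Pkd2fl/fl Pax8rtTA TetOCre mTmG, that is, floxed Pkd2 alleles, a tetracycline-inducible Cre driven through the renal-epithelial Pax8 promoter, and a membrane fluorescence reporter, and the treatments named for these cultures include no inducer of Cre. All were fed medium with HGF, EGF and FGF2 and were collected after 7 days. The labels give the source as kidney of postnatal day 7 to 10, whereas the methods name a somewhat younger age. Nothing in the labels says which animals a culture came from, so that p-values measure the spread between these cultures. The comparison asks how the RNA of tubuloids differed at collection after an early GDNF pulse.

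Wnt proteins are secreted, lipid-modified ligands that bind frizzled receptors together with the co-receptors Lrp5 and Lrp6. This keeps beta-catenin from being degraded, so that it can act with Tcf and Lef transcription factors in the nucleus, while other Wnt signals run through Ror and Ryk receptors or through planar cell polarity proteins. The ubiquitin ligases Rnf43 and Znrf3 remove frizzled receptors from the cell surface, and R-spondins bound to Lgr4, Lgr5 or Lgr6 block these ligases and so raise the response to Wnt. In the developing kidney, Wnt9b from the ureteric bud induces the nephron progenitors, Wnt4 acts in the condensing progenitors, and Wnt7b from the collecting duct epithelium shapes the medulla.

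The tables held 72991721 to 97490625 transcript counts per culture. Between cultures, levels are given as CPM, counts scaled to a common library size after normalization by the trimmed mean of M-values (TMM), and between genes as the authors' TPM, which corrects for transcript length as well. A count of 3, below which a gene was not taken as shown, amounts to 0.0299 to 0.0415 CPM, and this limit covers counting error only. The epithelial genes Epcam (66.0 to 199 TPM), Krt8 and Krt18 were high in every culture, whereas the proximal tubule genes Lrp2, Cubn and Slc34a1 stayed at or below 0.216 TPM, but Slc5a2 lay at 3.75 to 12.2 TPM. Of the collecting duct genes, the water channel Aqp2 stayed at or below 0.356 TPM and Fxyd4 lay at 4.95 to 69.3 TPM, with Avpr2 and Scnn1g reaching 4.43 and 5.15 TPM, all 3 highest in GDNF culture 6. Stromal genes were present throughout, with Col3a1 at 40.0 to 394 TPM, while the endothelial genes Cdh5, Kdr and Tek stayed at or below 0.525 TPM and Pecam1 at or below 1.81 TPM, but Emcn lay at 9.04 to 30.2 TPM and Flt1 at 4.87 to 27.7 TPM. Flt1 (log2 difference 0.81) and Tek (2.69, on 0 to 177 counts) were higher after GDNF at an edgeR unadjusted p of 0.05. The epithelial genes Krt8 (-1.45) and Cldn4 (-1.15) and the stromal gene Lum (-1.30) were lower. Of all genes tested, 9.25% were higher and 12.9% lower at that p. None of these markers passed an adjusted p of 0.05 (smallest adjusted p = 0.167, edgeR). Of the 8 cultures, 4 had mainly Xist RNA (control cultures 3 and 7, GDNF cultures 6 and 12) and 4 mainly Y-linked RNA (control 14 and 21, GDNF 17 and 22). Control culture 3 and GDNF culture 6 held both kinds (221 and 814 Y-linked counts, against 0 in the other 2 cultures with Xist), the cultures with Y-linked RNA had at most 139 Xist counts, and control culture 3 had a TMM factor of 0.790, against 0.963 to 1.11 elsewhere. Results that rest on these 2 cultures are given with and without them.

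In the control cultures, 9 of the 57 genes averaged 10 TPM or more, 26 lay between 1 and 10 TPM and 22 below 1 TPM. The most abundant was Dkk2, a secreted antagonist of Lrp5 and Lrp6, at 32.6 ± 8.69 TPM (SD, n = 4), followed by the alternative receptor Ryk at 32.4 ± 7.21 TPM, the Dickkopf relative Dkk3 at 31.8 ± 11.9 TPM and the ligand Wnt7b at 31.7 ± 24.9 TPM. These 4 means differed by far less than the spread between cultures. The other genes above 10 TPM were Fzd1 (22.8 TPM), Wnt4 (17.5 TPM), Wnt5a (15.1 TPM), Sfrp2 (13.1 TPM) and Wnt7a (12.1 TPM). TPM was not compared between the groups, because it shifted for most genes: among 13569 tested genes that averaged 1 TPM or more, 78.5% were higher on average in GDNF cultures, with a median log2 difference of 0.39.

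**Figure D1:**
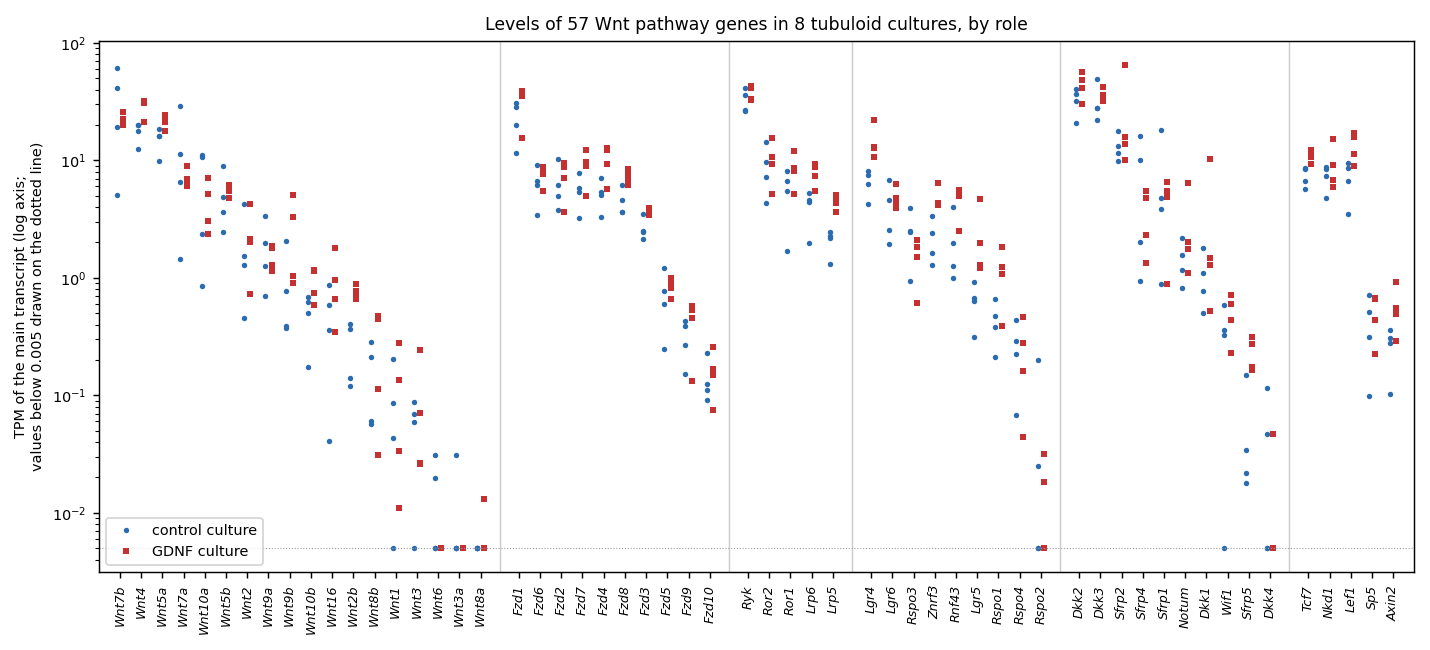
Levels of the 57 Wnt pathway genes, in TPM of the main transcript on a log axis, with the genes grouped by role along the horizontal axis in the order ligands, frizzled receptors, co-receptors and alternative receptors, R-spondin branch, secreted inhibitors, transcription factors and feedback targets. Each blue circle is a control culture and each red square a GDNF culture (4 each); values below 0.005 TPM are drawn on the dotted line, and 22 genes had a control mean below 1 TPM.

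In the edgeR test, none of the 52 Wnt genes passed an adjusted p of 0.05 between GDNF and control cultures (smallest adjusted p = 0.167), and neither did any of the 16557 genes tested (0% called). At an unadjusted p of 0.05, 6 Wnt genes were higher after GDNF (Lrp5, Lrp6, Lgr4, Lgr5, Znrf3 and Wnt2b), where 9.25% of all genes tested were higher, and 1 was lower (Rspo3), where 12.9% of all genes were lower. Lrp5, Lgr4, Lgr5, Znrf3 and Wnt2b had higher CPM in each GDNF culture than in any control culture, 5 of 52 genes against 6.99% of all genes. No Wnt gene was lower without overlap, against 6.26% of all genes. Of the 52 log2 fold changes, 32 were positive and 20 negative (52.5% and 47.5% over all genes), and their median was 0.17, against 0.03 for all genes. Scaled by library size only, which raised the median over all genes to 0.25, 42 differences were positive and 10 negative, 13 genes were higher at an unadjusted p of 0.05 (19.9% of all genes) and none lower (5.13% of all genes). Without control culture 3 and GDNF culture 6, 4 were higher (7.78% of all genes) and 1 lower (10.4% of all genes), 6 were higher and 1 lower without overlap (13.4% and 12.6% of all genes), and none passed an adjusted p of 0.05. In DESeq2, which gave an adjusted p for 22 of the 52 genes and left it undefined for 30, Znrf3 (adjusted p = 0.0300) and Lgr4 (adjusted p = 0.0426) passed, both higher after GDNF, in a test that called 14.7% of the genes with an adjusted p (2.3% higher and 12.4% lower). The 30 undefined included Lrp5 and Lgr5, with DESeq2 unadjusted p of 0.00016 and 0.0017. These were smaller than those of Znrf3 (0.0021) and Lgr4 (0.0052), so a missing adjusted p is not a failed test.

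**Figure D2:**
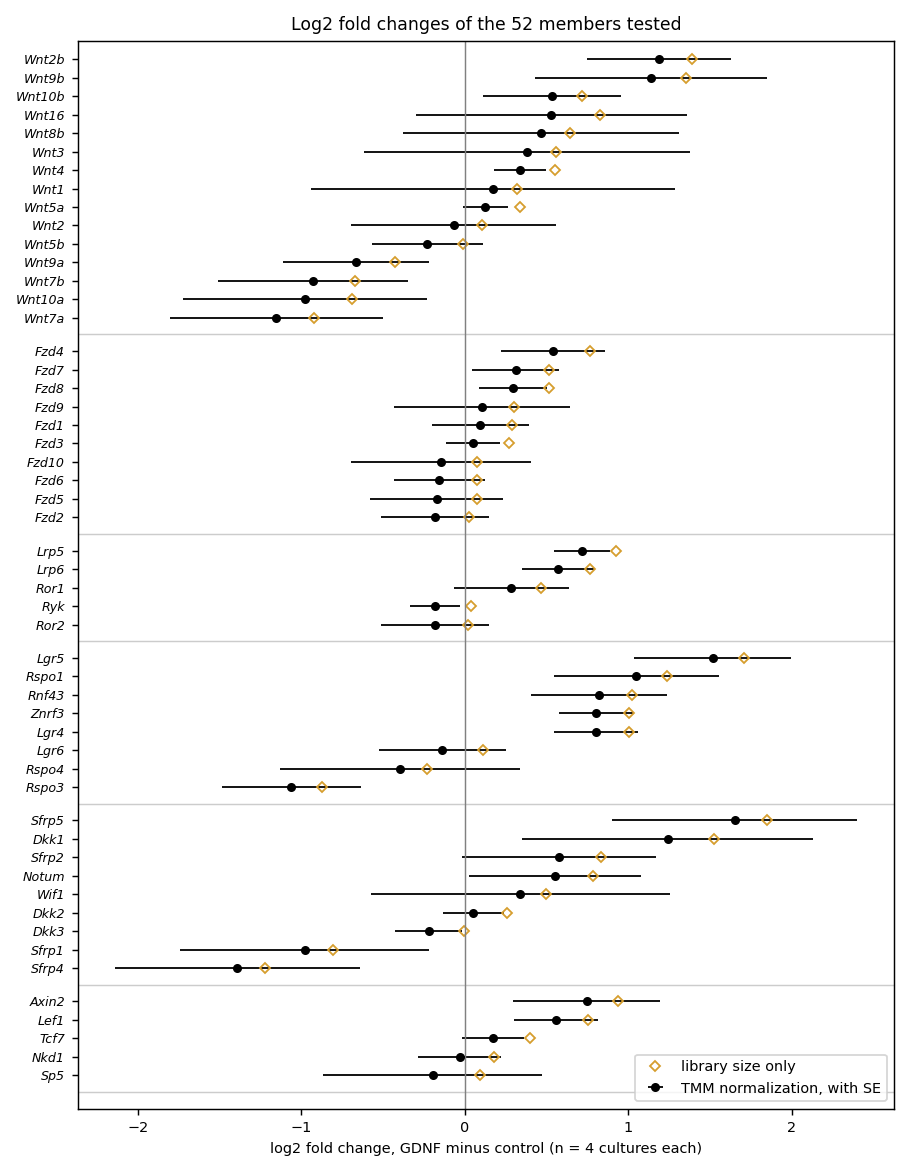
Log2 fold changes, GDNF minus control, of the 52 Wnt genes tested, grouped by role. Black points with bars are edgeR estimates after TMM normalization with their standard errors, and open diamonds the same estimates scaled by library size only, which lie to the right of the points; on TMM values 32 of the 52 are positive.

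Of the 18 ligands, 15 were tested. The level of Wnt7b, which the collecting duct epithelium makes, was 347 CPM in control culture 3, 117 in control 7, 30.9 in control 14 and 352 in control 21. In GDNF cultures 6, 12, 17 and 22 it was 118, 127, 106 and 93.3 CPM. The 4 GDNF cultures thus lay close together inside the range of the controls, and the log2 difference of -0.93 ± 0.58 (SE) was not larger than the spread (edgeR, adjusted p = 0.361). Wnt7a, a close relative, had the same spread, with 30.7, 13.0, 2.84 and 53.7 CPM in control cultures 3, 7, 14 and 21 and 9.63 to 13.6 CPM in the GDNF cultures.

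Wnt4, the ligand of the condensing nephron progenitors, was steady in the controls at 40.7, 42.6, 47.2 and 44.0 CPM in cultures 3, 7, 14 and 21. After GDNF it was at 63.0, 40.5, 61.2 and 55.9 CPM in cultures 6, 12, 17 and 22. Of the GDNF cultures 3 were above all controls and culture 12 was just below them, with a log2 difference of 0.34 ± 0.16 (edgeR, adjusted p = 0.242). The inducer ligand Wnt9b was at 0.988 to 5.81 CPM in the controls and 2.05 to 12.2 CPM in the GDNF cultures, and the non-canonical ligand Wnt5a varied little, at 70.9 to 94.4 and 78.0 to 94.8 CPM.

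Wnt2b, on chromosome 3 (GRCm38 104944805 to 104961709), encodes a ligand that acts through beta-catenin. Its level was low, with 0.429, 0.815, 0.897 and 0.250 CPM in control cultures 3, 7, 14 and 21. In GDNF cultures 6, 12, 17 and 22 it was at 1.26, 1.32, 1.58 and 1.31 CPM, from 106 to 154 counts. Each GDNF culture was above each control, and the log2 difference was 1.19 ± 0.44 (edgeR, unadjusted p = 0.0226, adjusted p = 0.181). Within the cultures with Xist the difference was 0.997 and within those with Y-linked RNA 1.38 on the log2 scale. Leaving out control culture 21 brought the difference to 0.88. In edgeR, the unadjusted p was 0.056 without that culture, 0.054 without control culture 3, 0.053 without GDNF culture 17 and 0.071 without control culture 3 and GDNF culture 6 together. Wnt2b overlaps the gene St7l, and since strand handling is not given in the sources used here, reads of the overlap cannot be assigned to either.

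The other ligands are given by their range. Those in the tables below 1 TPM in control cultures numbered 10 of 18, among them Wnt1, Wnt3 and Wnt8b, which were tested, and Wnt3a, Wnt6 and Wnt8a, which were not (Wnt8a had 1 count in 1 culture). Over the 15 ligands tested, 9 log2 differences were positive and 6 negative, with a median of 0.18 and a range from -1.15 (Wnt7a) to 1.19 (Wnt2b). Without control culture 3 and GDNF culture 6 the median was -0.07, with 7 positive and 8 negative.

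All 10 frizzled receptors, the receptors that bind Wnt directly, were tested. By control TPM the highest were Fzd1 and Fzd6. Fzd1 was at 43.6, 84.4, 78.1 and 50.3 CPM in control cultures 3, 7, 14 and 21 and at 36.1, 85.5, 79.8 and 72.5 CPM in GDNF cultures 6, 12, 17 and 22. Its lowest values were those of GDNF culture 6 and control culture 3, and the log2 difference was 0.10 ± 0.30. Fzd6 was at 43.1, 34.3, 17.2 and 43.1 CPM in the controls and at 35.6, 36.0, 22.5 and 29.5 CPM in the GDNF cultures, in the same orders, with a log2 difference of -0.16 ± 0.28. The groups overlapped for both genes. Over the 10 receptors the log2 differences ran from -0.18 (Fzd2) to 0.54 (Fzd4), with 6 positive and 4 negative, a median of 0.07 and no unadjusted p at or below 0.05. Scaled by library size only, all 10 were positive.

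The co-receptors Lrp5 and Lrp6 are the single-pass partners of frizzled in the beta-catenin branch. Lrp5 (chromosome 19, 3584825 to 3686585) was at 5.80, 7.88, 7.03 and 6.86 CPM in control cultures 3, 7, 14 and 21. In GDNF cultures 6, 12, 17 and 22 it was at 10.1, 11.8, 11.1 and 12.3 CPM. The lowest GDNF culture was above the highest control, and the log2 difference of 0.72 ± 0.17 had the smallest unadjusted p of the Wnt genes (edgeR, unadjusted p = 0.00209, adjusted p = 0.167). It was 0.68 within the cultures with Xist and 0.74 within those with Y-linked RNA. Leaving out single cultures gave 0.64 to 0.79 with unadjusted p of at most 0.0102, and leaving out control culture 3 and GDNF culture 6 together gave 0.70.

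Lrp6 (chromosome 6, 134446476 to 134566913) was at 15.9, 27.1, 30.6 and 23.9 CPM in the controls and 27.7, 34.5, 43.9 and 38.7 CPM in the GDNF cultures. The groups overlapped, since GDNF culture 6 was below control culture 14. The log2 difference was 0.57 ± 0.22 (edgeR, unadjusted p = 0.0270, adjusted p = 0.188), with 0.57 within the cultures with Xist and 0.61 within those with Y-linked RNA. The unadjusted p was 0.084 without control culture 21, 0.082 without GDNF culture 17, 0.061 without GDNF culture 22 and at most 0.050 without any other single culture. With control culture 3 and GDNF culture 6 both left out, the groups did not overlap. The log2 difference was then 0.52 (edgeR, unadjusted p = 0.0098).

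The alternative receptors all overlapped between the groups. Ryk, a receptor with an inactive kinase domain, was at 222, 160, 216 and 231 CPM in control cultures 3, 7, 14 and 21 and at 170, 163, 201 and 197 CPM in GDNF cultures 6, 12, 17 and 22. The receptor tyrosine kinase Ror2, which mediates non-canonical Wnt5a signals, was at 14.8, 17.9, 35.6 and 22.4 CPM in the controls and 11, 18.6, 21.3 and 28.8 CPM in the GDNF cultures. For these 2 receptors both log2 differences were -0.18 (SE 0.16 for Ryk and 0.33 for Ror2). Ror1 was at 5.15 to 17.8 CPM in the controls and 9.83 to 19.9 CPM in the GDNF cultures.

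The R-spondin branch held 4 of the 7 Wnt genes at an unadjusted p of 0.05, namely 3 higher (Lgr4, Lgr5 and Znrf3) and 1 lower (Rspo3), among 8 tested, where 9.25% of all genes were higher and 12.9% lower. The 3 higher genes did not overlap between the groups, as 6.99% of all genes did not in this direction. The median log2 difference of the 8 genes was 0.80, against 0.03 for all genes tested, with 5 positive and 3 negative; without control culture 3 and GDNF culture 6 it was 0.51.

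Lgr4 (chromosome 2, 109917647 to 110014257), the R-spondin receptor that is widely made in epithelia including the kidney, was at 18.5, 23.6, 25.6 and 18.5 CPM in control cultures 3, 7, 14 and 21. In GDNF cultures 6, 12, 17 and 22 it was at 60.0, 27.1, 32.8 and 30.3 CPM. All GDNF cultures were above all controls and culture 6 was far above the other GDNF cultures. The log2 difference was 0.80 ± 0.26 (edgeR, unadjusted p = 0.0110, adjusted p = 0.167), with 0.95 within the cultures with Xist and 0.53 within those with Y-linked RNA. Without GDNF culture 6 it was 0.48 (unadjusted p = 0.023), and without GDNF culture 6 and control culture 3 it was 0.41 (unadjusted p = 0.038).

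Lgr5 (chromosome 10, 115450314 to 115587780), a target of beta-catenin and a receptor known from stem cells of several epithelia, was at 1.26, 2.73, 1.87 and 1.83 CPM in the controls. In GDNF cultures 6, 12, 17 and 22 it was at 11.7, 2.84, 3.03 and 4.45 CPM. The lowest GDNF culture was just above the highest control, and culture 6 was again far above the rest. The log2 difference was 1.52 ± 0.48 (edgeR, unadjusted p = 0.0101, adjusted p = 0.167), with 1.59 within the cultures with Xist and 0.95 within those with Y-linked RNA. Leaving out GDNF culture 6 lowered it to 0.84 (unadjusted p = 0.035), and leaving out control culture 3 as well to 0.68 (unadjusted p = 0.063). Lgr5 overlaps A930009A15Rik, with the same limit on strand as for Wnt2b. That limit also holds for Wnt7b (AU022754), Wnt5b (Fbxl14), Fzd4 (Tmem135) and Rnf43 (1110028F11Rik), and for Wnt3 and Wnt9b, which overlap each other.

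The third receptor, Lgr6, was at 14.2, 5.82, 4.35 and 14.2 CPM in control cultures 3, 7, 14 and 21 and at 9.29, 11.4, 7.73 and 6.73 CPM in GDNF cultures 6, 12, 17 and 22. The GDNF cultures lay inside the range of the controls, and the log2 difference was -0.14 ± 0.39.

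Of the ubiquitin ligases, Znrf3 (chromosome 11, 5276329 to 5444847), itself a feedback target of beta-catenin, was at 15.7, 21.3, 14.4 and 27.8 CPM in the controls. After GDNF it was at 32.3, 31.1, 31.1 and 43.3 CPM, in the same order of cultures as above. The groups did not overlap, and the log2 difference was 0.80 ± 0.23 (edgeR, unadjusted p = 0.00533, adjusted p = 0.167), with 0.79 within the cultures with Xist and 0.87 within those with Y-linked RNA. Leaving out single cultures gave 0.67 to 0.96, with unadjusted p of at most 0.0201, and leaving out control culture 3 and GDNF culture 6 together gave 0.73. Its relative Rnf43 was at 2.70 to 10.7 CPM in the controls and 5.42 to 12.8 CPM in the GDNF cultures, with overlap, a log2 difference of 0.82 ± 0.42 and an adjusted p of 0.270 in edgeR.

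Of the R-spondin ligands, Rspo3 (chromosome 10, 29453106 to 29535867) was at 1.94, 3.73, 5.83 and 3.40 CPM in control cultures 3, 7, 14 and 21 and at 0.777, 2.18, 1.82 and 2.37 CPM in GDNF cultures 6, 12, 17 and 22. It was the only Wnt gene lower after GDNF at an unadjusted p of 0.05 (log2 difference -1.06 ± 0.42, edgeR, unadjusted p = 0.0313, adjusted p = 0.195). The groups overlapped, because control culture 3 was below GDNF cultures 12 and 22. The difference was -0.98 within the cultures with Xist and -1.07 within those with Y-linked RNA, and the unadjusted p was 0.10 without control culture 14, 0.060 without GDNF culture 6, 0.056 without GDNF culture 17, 0.055 without control culture 7 and 0.084 when scaled by library size only. With control culture 3 and GDNF culture 6 both left out, the groups did not overlap for Rspo3. Its log2 difference was then -1.03 (edgeR, unadjusted p = 0.0102). Rspo1 was at 0.332 to 0.702 CPM in the controls and 0.359 to 1.67 CPM in the GDNF cultures, and Rspo4 at 0.138 to 0.651 and 0.0495 to 0.593 CPM.

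**Figure D3:**
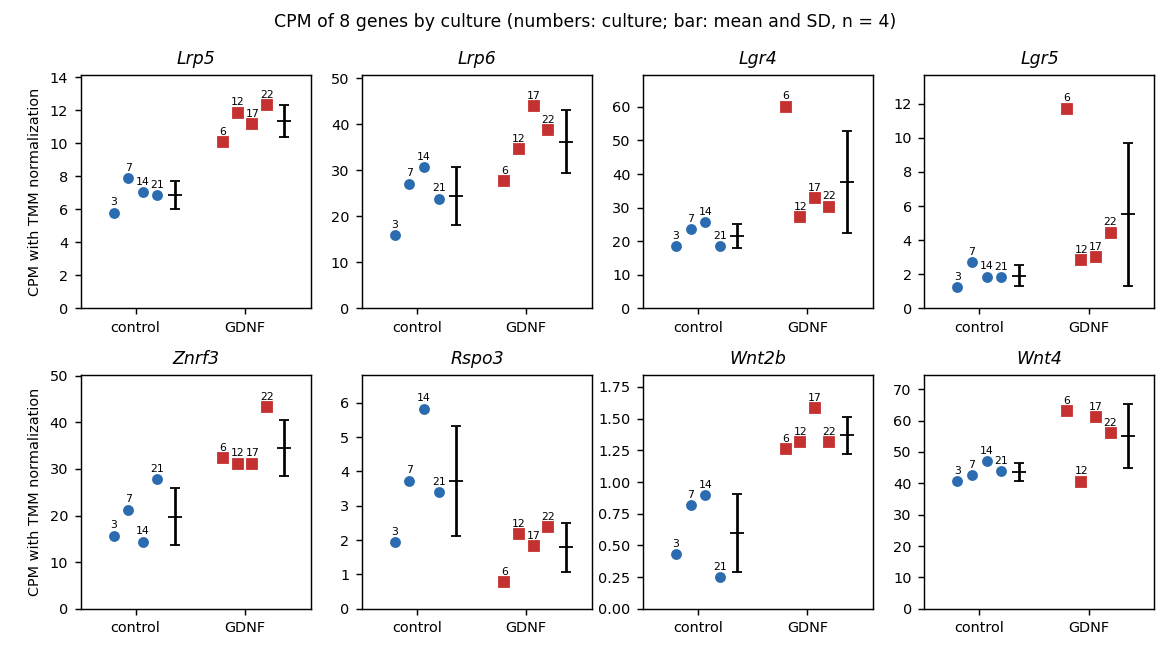
CPM after TMM normalization of the 7 Wnt genes with an unadjusted p of 0.05 or less, and of Wnt4, in each culture. Blue circles are control and red squares GDNF cultures, labelled with the culture number, and the bars give the mean and SD (n = 4). GDNF culture 6 stands far above the other cultures for Lgr4 (60.0 CPM) and Lgr5 (11.7 CPM), whereas the 4 GDNF cultures lie together for Lrp5 and Wnt2b.

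The 10 secreted inhibitors bind Wnt (Sfrp proteins, Wif1), bind Lrp5 and Lrp6 (Dkk1, Dkk2, Dkk4) or remove the lipid of Wnt (Notum), and 9 were tested. Dkk2 was at 65.7, 94.1, 85.0 and 69.1 CPM in control cultures 3, 7, 14 and 21 and at 60.3, 89.2, 77.3 and 98.7 CPM in GDNF cultures 6, 12, 17 and 22. Dkk3, which does not bind the co-receptors as its relatives do, was at 63.4, 58.7, 103 and 54.0 CPM in the controls and 57.6, 54.7, 60.5 and 66.7 CPM in the GDNF cultures. Both genes overlapped between the groups, with log2 differences of 0.05 ± 0.19 and -0.22 ± 0.21.

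Several inhibitors were set apart by 1 or 2 cultures. Dkk1 was at 12.2 CPM in GDNF culture 6 and at 0.588 to 1.57 CPM in the other GDNF cultures, with 0.655 to 3.45 CPM in the controls. Sfrp2 was at 69.5 CPM in GDNF culture 6, at 9.99 to 15.8 CPM in the other GDNF cultures and at 12.3 to 30.6 CPM in the controls. Sfrp1 was at 49.2 CPM in control culture 14, at 3.35 to 13.0 CPM in the other controls and at 2.07 to 14.2 CPM in the GDNF cultures. Sfrp4 was also highest in control culture 14, at 17.8 CPM, with 10.2 CPM in control culture 21 and 1.26 to 4.81 CPM in the remaining cultures. The log2 differences ran from -1.39 (Sfrp4) to 1.65 (Sfrp5, which rested on 2 to 30 counts), none with an unadjusted p at or below 0.05, and 6 of the 9 were positive with a median of 0.34. Without control culture 3 and GDNF culture 6, 4 were positive and the median was -0.12.

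All 5 transcription factors and feedback targets were tested, and none had an unadjusted p at or below 0.05. Tcf7, a transcription factor that binds beta-catenin, was at 12.8, 12.1, 7.93 and 10.9 CPM in the controls and 11.1, 13.3, 12 and 12.9 CPM in GDNF cultures 6, 12, 17 and 22, with a log2 difference of 0.17 ± 0.19. Nkd1, a feedback inhibitor that binds Dishevelled, was at 33.3, 37.8, 45.1 and 40.2 CPM in the controls and 26.1, 28.3, 37.8 and 60.8 CPM in the GDNF cultures, which included both its lowest and its highest value, with a log2 difference of -0.03 ± 0.26. Axin2, the feedback target most used to read beta-catenin activity, was at 0.374 to 0.951 CPM in the controls and 0.618 to 1.86 CPM in the GDNF cultures (log2 difference 0.75 ± 0.45, edgeR, adjusted p = 0.341). Lef1 was at 27.1 to 53.4 and 40.3 to 75.7 CPM (0.56 ± 0.26, edgeR, adjusted p = 0.232), and the target Sp5 at 0.128 to 1.29 and 0.236 to 0.755 CPM (-0.20 ± 0.67).

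The promoters of the Wnt genes were searched for the heptamers that Tcf and Lef factors are known to bind, CTTTGAA, along with CTTTGAT, then CTTTGTA, then also CTTTGTT, on both strands of the 250 bases before a RefSeq start (GRCm38.p6). Of the 57 genes, 38 were matched, with 45 promoters, of which 5 (11.1%) held a heptamer, against 14.8% of 32851 promoters of all genes. The 5 were those of Sp5, Dkk1 and Fzd7, 1 of the 3 starts of Wnt5b and 1 of the 4 starts of Lef1. The promoters of Lgr4, which passed in DESeq2, and of Sp5, whose level did not differ between the groups beyond their spread, are shown as an example of each, plus strand, 5′ to 3′, with heptamers in capitals.
Lgr4 chr2:109917397-109917646 (no match): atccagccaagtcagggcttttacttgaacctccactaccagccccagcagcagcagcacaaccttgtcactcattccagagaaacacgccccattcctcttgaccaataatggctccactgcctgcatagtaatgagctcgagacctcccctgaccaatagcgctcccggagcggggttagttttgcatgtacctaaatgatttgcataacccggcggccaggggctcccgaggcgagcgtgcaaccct
Sp5 chr2:70474673-70474922 (2 matches): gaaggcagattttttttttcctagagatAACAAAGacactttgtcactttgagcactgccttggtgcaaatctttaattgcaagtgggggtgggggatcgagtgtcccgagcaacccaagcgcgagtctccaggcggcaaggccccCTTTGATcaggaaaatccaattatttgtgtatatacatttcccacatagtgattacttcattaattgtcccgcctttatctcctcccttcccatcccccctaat
In Sp5 the first match begins 222 bases before the start and reads AACAAAG, which is CTTTGTT on the other strand, and the second begins 104 bases before it. In Lgr4 none of the 4 heptamers is present in this window. A match is a description of the letters and not of binding.

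Of 53 other genes of the pathway, 52 were tested and none passed an adjusted p of 0.05 in edgeR. At an unadjusted p of 0.05, 10 were higher after GDNF (9.25% of all genes were) and 2 lower (12.9% of all genes were), and their median log2 difference was 0.11, against 0.03 for all genes. In DESeq2, the cytoplasmic mediator Dvl1 (adjusted p = 0.0253) and the co-repressor Tle2 (adjusted p = 0.0228) passed, both higher after GDNF. The planar polarity gene Celsr1 had a smaller DESeq2 unadjusted p (9.3e-05) than either, but its adjusted p was undefined. Of the 12 genes of the cytoplasmic beta-catenin branch, the Dishevelled genes Dvl1 (log2 difference 0.58 ± 0.14) and Dvl3 (0.50 ± 0.17) had an unadjusted p at or below 0.05, whereas beta-catenin itself, Ctnnb1, was at 719 to 956 CPM in the controls and 747 to 925 CPM in the GDNF cultures. All 10 nuclear genes tested had positive log2 differences (52.5% of all genes did), with a median of 0.37, and 4 were higher at an unadjusted p of 0.05 (9.25% of all genes were), the transcription factors Tcf7l1 (0.31 ± 0.14) and Tcf7l2 (0.65 ± 0.22), the beta-catenin partner Bcl9 (0.66 ± 0.23) and Tle2 (0.88 ± 0.22). With 1 culture left out, Tcf7l2 missed that p without control culture 21 and Tcf7l1 in 6 of 8 cases, all but those without GDNF culture 17 or control culture 3, and both missed it without control culture 3 and GDNF culture 6 together.

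Of the 10 planar cell polarity genes, 3 had an unadjusted p at or below 0.05, all higher after GDNF, where 9.25% of all genes were higher. The polarity cadherin Celsr1 was at 5.72, 11.7, 5.04 and 9.36 CPM in control cultures 3, 7, 14 and 21 and at 23.6, 17.6, 13.8 and 19.4 CPM in GDNF cultures 6, 12, 17 and 22. These groups did not overlap (log2 difference 1.23 ± 0.29, edgeR, unadjusted p = 0.00185, adjusted p = 0.167). The others were the cadherin Celsr2 (0.67 ± 0.29) and the formin Daam1 (0.44 ± 0.18). With 1 culture left out, Celsr2 missed that p without GDNF culture 6 or 12 or control culture 3, 14 or 21, and Daam1 without GDNF culture 17 or 22 or control culture 3 or 7, and both missed it without control culture 3 and GDNF culture 6 together. Among 8 other extracellular modulators tested, Trabd2b, which encodes a protease that cleaves Wnt, was at 17.4 CPM in GDNF culture 6, 4.32 to 8.05 CPM in the other GDNF cultures and 2.90 to 5.86 CPM in the controls. Its log2 difference was 1.18 ± 0.41, but 0.67 without GDNF culture 6 and 0.58 without control culture 3 as well, and in edgeR the unadjusted p was then 0.067 and 0.13 (0.060 without control culture 21). Cthrc1, a secreted protein that binds Wnt and frizzled, had a log2 difference of -1.03 ± 0.41, which was -0.59 without control culture 14, and it missed an unadjusted p of 0.05 without that culture or GDNF culture 6, 12 or 22, as well as without control culture 3 and GDNF culture 6 together.

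Of 10 further genes known as targets in some tissues, only Ccnd1, encoding cyclin D1, had an unadjusted p at or below 0.05, with a log2 difference of -1.31 ± 0.56. It was at 341, 65.0, 56.3 and 342 CPM in control cultures 3, 7, 14 and 21 and at 59.0 to 97.3 CPM in the GDNF cultures, so that its mean in the controls rested on cultures 3 and 21. With 1 culture left out it missed an unadjusted p of 0.05 in 6 of 8 cases, all but those without control culture 7 or 14, and the log2 difference was -0.93 without control culture 3. Without control culture 3 and GDNF culture 6, 5 of the 52 other pathway genes were higher at an unadjusted p of 0.05 and none lower, where 7.78% and 10.4% of all genes were.

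**Figure D4:**
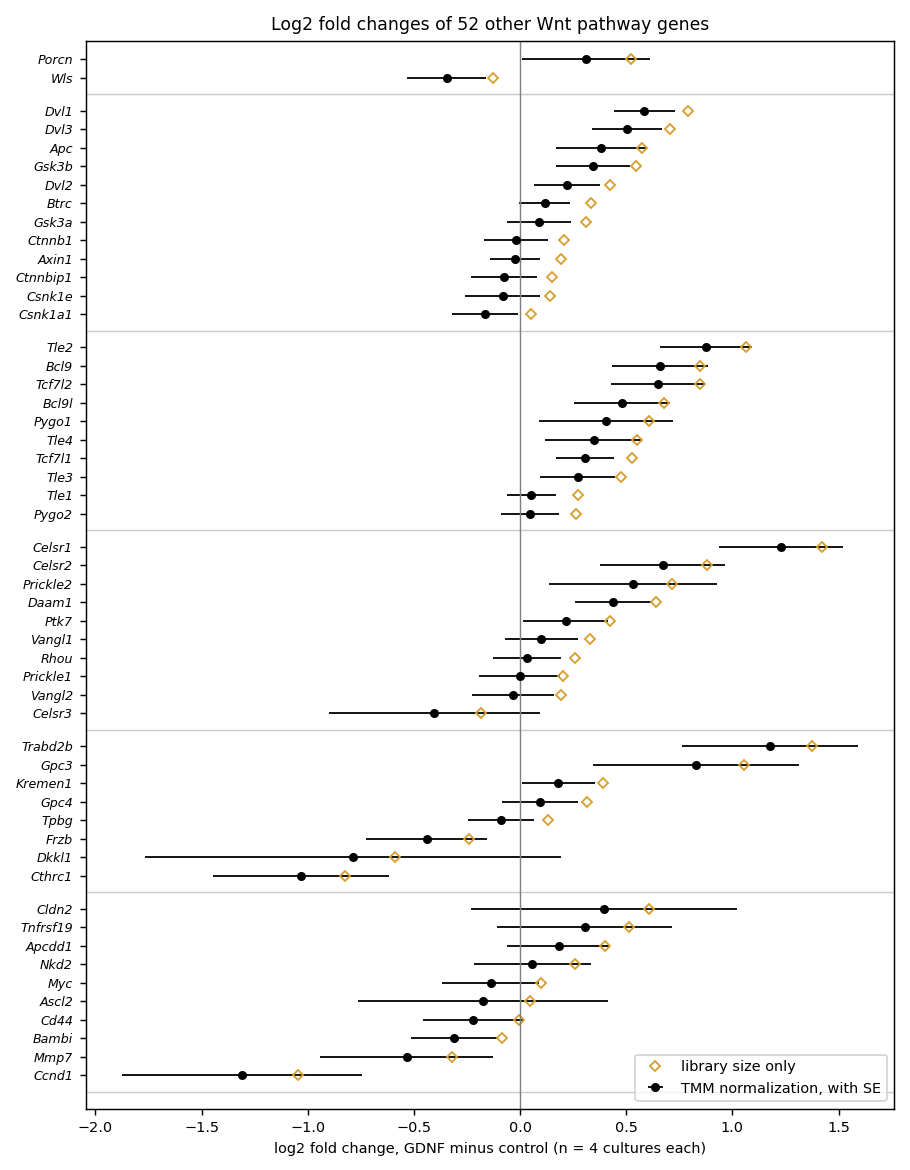
Log2 fold changes, GDNF minus control, of the 52 other Wnt pathway genes tested, grouped from top to bottom as secretion, cytoplasmic beta-catenin branch, nuclear, planar polarity, other extracellular modulators and other named targets. Black points with bars are edgeR estimates after TMM normalization with their standard errors, and open diamonds are scaled by library size only. All 10 nuclear genes lie to the right of 0 under both scalings.

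Several Wnt genes with a large spread in the controls had levels that ran with summed levels of epithelial or stromal marker genes. The summed level of 8 tubule epithelium markers was 3169, 1202, 484 and 3401 CPM in control cultures 3, 7, 14 and 21 and 1685, 1130, 948 and 947 CPM in GDNF cultures 6, 12, 17 and 22. That of 10 stroma markers was 1032, 2185, 5840 and 1976 CPM in the controls and 793, 3111, 3671 and 2571 CPM in the GDNF cultures. The sums add CPM, so that the most counted markers weigh most. In control culture 21, Krt8 and Krt18 had 110487 and 102180 counts, against at most 24567 (Cdh16) for any other epithelial marker. Single markers differed in course: Cdh16, Pax2 and Pax8 were highest in GDNF culture 6 (120, 7.42 and 110 TPM), where Cldn4 was lowest (18.8 TPM). A relation to the epithelial sum is thus not one to each of its markers. Both sums overlapped between the groups, and the control cultures with the highest epithelial sums, 3 and 21, had the lowest stromal sums of the controls. In such cultures fewer cells of a type and less RNA per cell cannot be told apart.

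The log2 level of each tested gene was correlated with both sums over the 8 cultures, 33096 relations in all, by exact permutation tests. None of the Wnt genes passed Benjamini-Hochberg adjustment over all relations. At an unadjusted p of 0.05, 10 of 52 Wnt genes ran with the epithelial sum (10.2% of all genes did) and 7 against it (7.2% of all genes). With the stromal sum, 10 ran along (8.73% of all genes) and 6 opposite (7.93% of all genes). In all, 24 of 52 Wnt genes were related to either sum, against 26.1% of all genes. Each kind of culture, with Xist or with Y-linked RNA, holds only 4 cultures, too few for a correlation within it. The sums share their libraries with the Wnt genes, and the part of cell content in the differences between the groups was not tested.

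Wnt7b had the closest relation to the epithelial sum (exact permutation tests, Pearson's r = 0.97, p = 0.00077, adjusted p = 0.0816; Spearman's rho = 0.93, p = 0.0022, adjusted p = 0.142), and r was 0.90 without control cultures 3 and 21. Wnt7a, Wnt10a and Wnt9a, also ligands, and the receptors Fzd6 and Lgr6 ran along with it, with r of 0.89 (Lgr6) to 0.93 (Wnt7a), rho of 0.69 (Wnt7a) to 0.90 (Fzd6), exact permutation p for r of at most 0.0044 (adjusted, at most 0.130) and for rho of at most 0.069 (adjusted, at most 0.362). Without control cultures 3 and 21 their r was 0.63 (Wnt9a) to 0.90 (Fzd6). Wnt5a ran opposite to it (exact permutation tests, r = -0.87, p = 0.0038, adjusted p = 0.126; rho = -0.93, p = 0.0022, adjusted p = 0.142; r = -0.72 without control cultures 3 and 21).

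With the stromal sum, Wnt2, a ligand known from mesenchyme, had the closest relation (exact permutation tests, r = 0.97, p = 0.00025, adjusted p = 0.0636; rho = 0.98, p = 0.0004, adjusted p = 0.114), and r was 0.94 without GDNF culture 6 and control culture 14. The secreted inhibitor Sfrp1 followed (r = 0.96, p = 0.00052, adjusted p = 0.0783; rho = 0.90, p = 0.0046, adjusted p = 0.166, exact permutation tests; r = 0.90 without the same 2 cultures). Fzd2 and Fzd7 ran with it (r of 0.92 and 0.88, exact permutation p of 0.0016 and 0.0029, adjusted p of 0.0989 and 0.116; rho of 0.95 and 0.98, p of 0.0011 and 0.0004, adjusted p of 0.119 and 0.114; r of 0.71 and 0.92 without these cultures). Wnt16, on 4 to 149 counts, and Sfrp2 ran opposite to the stromal sum. For Wnt16, r was -0.92 (p = 0.0017, adjusted p = 0.101) and rho -0.88 (p = 0.0072, adjusted p = 0.184, exact permutation tests). For Sfrp2, r was -0.88 (p = 0.0028, adjusted p = 0.114) and rho -0.83 (p = 0.015, adjusted p = 0.221, exact permutation tests). Without the same 2 cultures, r was -0.80 for Wnt16 and -0.92 for Sfrp2. Sfrp1 itself was at 3.35, 13.0, 49.2 and 9.69 CPM in control cultures 3, 7, 14 and 21, in the order of their stromal sums.

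**Figure D5:**
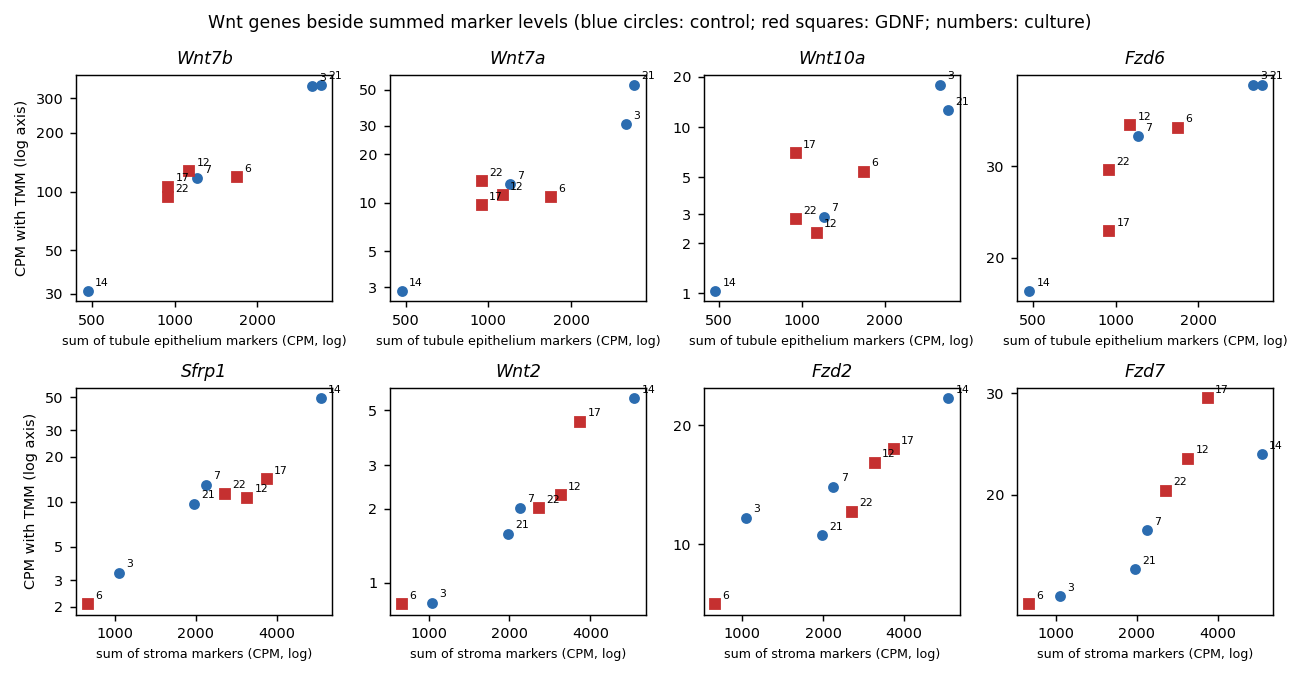
CPM of 8 Wnt genes (vertical axes, log) against the summed CPM of 8 tubule epithelium markers (upper row) or 10 stroma markers (lower row; horizontal axes, log) in each culture. Blue circles are control and red squares GDNF cultures, labelled with the culture number. Wnt7b runs from 30.9 CPM in control culture 14 to 352 CPM in control culture 21, along with the epithelial sum, and the GDNF cultures lie between them.

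Of the 7 genes at an unadjusted p of 0.05 between the groups, 3 were also related to a marker sum at an unadjusted p of 0.05. Lrp6 (exact permutation tests, r = -0.72, p = 0.043, adjusted p = 0.277; rho = -0.79, p = 0.028, adjusted p = 0.260) and Wnt2b (r = -0.72, p = 0.047, adjusted p = 0.287; rho = -0.64, p = 0.096, adjusted p = 0.412, exact permutation tests) ran opposite to the epithelial sum, with r of -0.23 and 0.30 once control cultures 3 and 21 were left out, so that both relations rest on these cultures. Rspo3 ran with the stromal sum (r = 0.72, p = 0.046, adjusted p = 0.284; rho = 0.43, p = 0.299, adjusted p = 0.650, exact permutation tests), with r of -0.09 without GDNF culture 6 and control culture 14. For Lrp5, Lgr4, Lgr5 and Znrf3, Pearson's r with the 2 sums lay between -0.44 and 0.20, none with an unadjusted exact permutation p at or below 0.05. These low values rest on a few cultures. Without GDNF culture 6 and control culture 14, r with the stromal sum was 0.87 for Lrp5, 0.84 for Lgr4, 0.80 for Lgr5, 0.77 for Znrf3 and 0.96 for Lrp6. Among the cultures then left, the stromal sum was 2571 to 3671 CPM in the GDNF cultures and 1032 to 2185 CPM in the controls. A gene higher in each of these GDNF cultures is thus bound to have a positive r. These r therefore cannot tell a relation to stroma from the difference between the groups. Without control cultures 3 and 21, r of Lrp5, Lgr4, Lgr5 and Znrf3 with the epithelial sum was 0.46 (Lrp5) to 0.76 (Lgr5).

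The spread between cultures was the larger in the controls for 33 of the 52 Wnt genes (63.5%) and for 70.4% of all genes tested. The median coefficient of variation of the Wnt genes was 39.9% in the controls and 35.0% in the GDNF cultures.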

How the data were processed

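The 57 Wnt genes and the lists of other genes were chosen with earlier results of these data known. RNA was amplified with SMART-Seq v4 and sequenced in paired ends on 2 lanes of 4 samples each, the lane of a culture not being given. The authors mapped reads with STAR to mm10 (GRCm38) and, per the submitters' processing notes, used featureCounts and DESeq2; versions and strand handling are not given in the sources used here. The deposited tables hold, for 33068 RefSeq transcripts, whole-number counts without normalization, and the authors' TPM and FPKM, of which FPKM was not used. Counts were summed per symbol, so that reads shared by transcripts of a gene enter more than once. edgeR 4.0.16 (filterByExpr, TMM, glmQLFit, glmQLFTest) in R 4.3.3 was fitted to all 8 cultures, with Benjamini-Hochberg adjustment over 16557 genes. The standard error is the log2 fold change over the square root of F. Per gene, TPM is taken from its most counted transcript. Values in every culture are given for Wnt genes with an unadjusted p of 0.05 or less or no overlap and for the 2 of each role with the highest control TPM; others were named after their values were seen. Within-kind differences are of log2(CPM + 0.1). Alternatives were DESeq2 1.42.0, other normalizations and filters, 1 transcript per gene, a term for Xist or Y-linked RNA and leaving out each culture; the correlations with marker sums and leaving out control culture 3 with GDNF culture 6 were added after seeing the data. The fits were tested on simulated counts. Gene positions and promoters are from RefSeq (GRCm38.p6). Marker sums used 8 epithelial genes (Cdh1, Epcam, Krt8, Krt18, Pax8, Pax2, Cdh16, Cldn4) and 10 stromal genes (Col1a1, Col1a2, Col3a1, Pdgfra, Pdgfrb, Dcn, Lum, Acta2, Tagln, Postn).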

Additional observations from a re-analysis of the deposited data

Results flagged for a closer look

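In the GDNF cultures, Wnt2b was at 1.58 CPM in culture 17 and at 1.26 to 1.32 CPM in the other 3, so that this culture stood apart by the gap to its nearest neighbour relative to the whole range (Dixon's criterion). Znrf3 was at 43.3 CPM in GDNF culture 22 and at 31.1 to 32.3 CPM in the other 3 by the same criterion. These were 2 of 36 groups of 4 examined, where chance gives about 1.8.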

How the results depend on the processing

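No paired analysis was made, because the labels do not pair the cultures and the groups share no culture number. Unlike numbers do not show that the cultures came from separate preparations. Control culture 3 and GDNF culture 6 were the only cultures with mainly Xist RNA that also held Y-linked RNA. Whether cultures of the 2 groups shared a preparation was not tested. With DESeq2, 2 Wnt genes and 2 other pathway genes passed an adjusted p of 0.05, in place of 0 and 0 with edgeR. At an unadjusted p of 0.05 in DESeq2, 2 of 52 Wnt genes were lower in place of 1, where 2479 of all 16557 genes were lower. No other alternative called a Wnt gene at an adjusted p. With the term for Xist or Y-linked RNA, 10 Wnt genes were higher and 2 lower at an unadjusted p of 0.05, in place of 6 and 1. Those added as higher were Wnt9b (edgeR, unadjusted p = 0.0029), Sfrp5 (0.017), Rnf43 (0.025) and Fzd4 (0.025), and Sfrp4 (0.037) was added as lower. The share of all genes was not counted under this term, so the rise cannot be read as particular to the Wnt genes. Scaling by library size only, which moved the median log2 difference of all genes from 0.03 to 0.25 and that of the Wnt genes from 0.17 to 0.37, gave 13 higher and 0 lower, 42 positive and 10 negative, and turned Fzd6 to 0.077, Lgr6 to 0.11, Nkd1 to 0.18, Ror2 to 0.017 and Ryk to 0.041. Leaving out control culture 3 and GDNF culture 6 together gave 4 higher and 1 lower, 1 gene lower without overlap (12.6% of all genes), and turned Lgr6 to 0.080 and Nkd1 to 0.042. Leaving out 1 culture at a time gave 4 to 10 higher (10 without control culture 7), 0 to 4 lower (0 without GDNF culture 6 or 17, 2 without control culture 3, 4 without control culture 14), 5 to 8 higher without overlap (8 without GDNF culture 12 or control culture 7), 0 to 1 lower without overlap, and a median of 0.07 (without control culture 3) to 0.29 (without control culture 7); the log2 difference ran from -0.055 to 0.17 for Dkk2, from -0.37 to 0.027 for Dkk3, from -0.052 to 0.31 for Fzd1, from -0.38 to 0.11 for Lgr6, from -0.35 to 0.11 for Nkd1 and from -0.41 to 0.12 for Ror2. The share of all genes was not counted for the single omissions, so their counts cannot be read as particular to the Wnt genes. With fewer cultures, groups separate more easily. Of all genes, 13.4% were higher without overlap once control culture 3 and GDNF culture 6 were left out, against 6.99% in all cultures. The cause of these shifts was not tested. Of 306 log2 differences of 18 named genes under 17 alternatives, 21 changed sign, all in Dkk2, Dkk3, Fzd1, Fzd6, Lgr6, Nkd1, Ror2 and Ryk. Genes of a few counts, such as Sfrp5, are limited by depth.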
